A study of Gallus gallus with 6 samples.

Results

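Matricellular proteins are secreted into the extracellular matrix but act there less as structural building blocks than as regulators of how cells attach, respond to growth factors and lay down collagen. Skeletal muscle is wrapped in such a matrix, made in large part by its connective tissue cells and in part by the muscle cells themselves. The 10 genes described here include SPARC and its relatives SMOC1 and SMOC2, and the spondins SPON1 and SPON2. Among the others, DPT (dermatopontin) and COMP (cartilage oligomeric matrix protein) are collagen-associated proteins, and CLEC3B (tetranectin) binds plasminogen. The remaining members, POSTN (periostin) and TNC (tenascin-C), are adhesion-modulating proteins. All 10 genes were taken by symbol from gene tables of 26591 entries, 11074 of which carry a symbol. Each symbol had 1 entry, and all 10 passed the filter on low counts that 15959 entries passed.

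The libraries came from primary cells of chicken (Gallus gallus) embryo skeletal muscle at passage 1. The 3 myoblast libraries came from proliferating cells in RPMI-1640 with 15% fetal bovine serum (FBS), and the 3 myotube libraries from differentiated cells after a change to RPMI-1640 with 2% horse serum. Penicillin and streptomycin at 2% were in both media. Neither strain, embryo age nor time in differentiation medium was given in the sources used here. Serum kind, serum amount and cell state differ together between the groups and cannot be told apart. Nothing in the labels says that replicates were separate cultures or animals. The errors therefore rest on how far libraries of a group differ among themselves, possibly for technical reasons alone. The p-values set the difference between the groups against that spread.

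Total counts ran from 21893152 to 27546527 per library. FPKM, the authors' unit, scales a gene's reads to its length and to the library's total. All 16 muscle markers examined had an entry and none was at 0 in every library. The list's summed level was 3397 to 6322 FPKM in the libraries labelled myoblast and 1951 to 2043 FPKM in those labelled myotube. Both groups thus held muscle RNA. The list holds genes of dividing myoblasts and genes of differentiation, which are known to go down and up, respectively, when myoblasts become myotubes. By edgeR's quasi-likelihood test with Benjamini-Hochberg adjustment, the progenitor and myoblast genes PAX7 (log2 change -1.91 ± 0.15), MYF5 (-2.93 ± 0.26) and MYOD1 (-0.75 ± 0.13) fell, which is the direction the labels give. DES, the muscle filament desmin, also fell (-2.47 ± 0.32, or -1.95 without myoblast replicate 3), which is the opposite direction for a gene of differentiation. MYBPH (-2.75, or -2.14 without myoblast replicate 3) and CSRP3, also genes of differentiation, fell too. Of all 16 muscle markers 11 fell, 5 had no call and 0 rose. MYOG, a regulator of differentiation, was at 287, 287 and 526 FPKM in myoblast and 298, 328 and 274 FPKM in myotube replicates 1 to 3, with no call and a log2 change of -0.24 that was 0.14 without myoblast replicate 3. The names myoblast and myotube are used below as the labels give them. Myoblast replicate 3 held the 6322 and stood apart from the other myoblast libraries, at 3582 and 3397 FPKM. The same library had the lowest summed level of fibroblast markers, 1400.4 FPKM against 2167 and 2268 FPKM. Of these markers the collagen gene COL1A2 was at 415 FPKM there, against 718 and 815 FPKM. The members' changes are therefore also given without myoblast replicate 3.

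The 10 genes were selected on their counts and FPKM in these same 6 libraries, with their difference between the groups known, so their values are a description and carry no test. In these bulk libraries a lower level could mean fewer cells of a type or less RNA per cell, and the alternatives cannot be told apart. Of the 10, 8 were higher in every myotube library than in any myoblast library (34.1% of all tested genes were so) and 2 were lower in every one (33.1% of all tested genes, or 67.2% in either direction). SPON2 differed most, at a 63.2-fold higher level in myotubes, and POSTN was the lowest relative to myoblasts, at 3.25-fold less. At least 2-fold higher levels were found in the same number of members, 8, and at least 2-fold lower levels in 2, against 13.5% and 12.1% of all tested genes. Of these 2, TNC was near the 2-fold line, at a log2 change of -1.10. Without myoblast replicate 1 it was at -0.98, less than 2-fold.

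**Figure D1:**
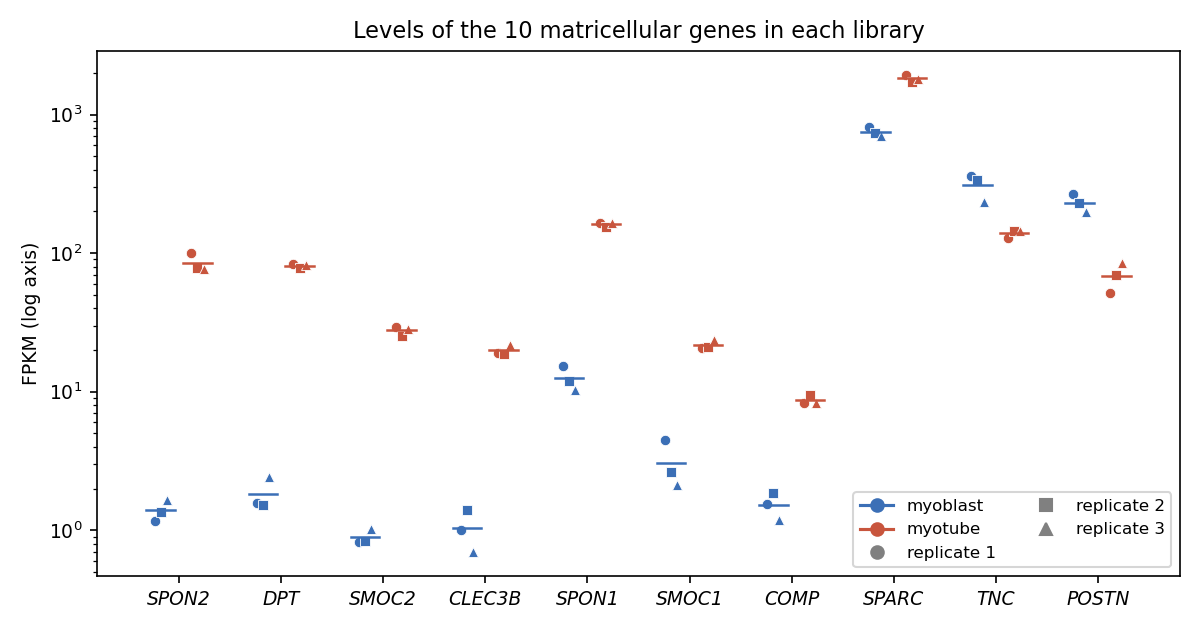
FPKM of each of the 10 genes (log axis) in each of the 6 libraries, with blue for myoblast and red for myotube, a marker shape per replicate and a line at each group mean. From SPON2 to SPARC all myotube points lie above all myoblast points, and for TNC and POSTN all lie below.

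SPARC, the founding member of its family, binds collagen and calcium and modulates cell attachment. Its gene lay on the plus strand of chromosome 13, 12919261 to 12927487 (ENSGALG00000004184, coordinates as deposited, on a build that was not given in the sources used here). It stood at 814, 732 and 696 FPKM in myoblast replicates 1 to 3 and at 1944, 1718 and 1818 FPKM in myotube replicates 1 to 3. The groups did not overlap, and the lowest myotube library was 2.11 times the highest myoblast library. The fitted log2 change, myotube minus myoblast, was 1.35 ± 0.10 (SE), or 2.54-fold. SPARC was among the most abundant transcripts in both states. By FPKM it ranked 104, 121 and 127 of all entries in myoblasts and 43, 63 and 54 in myotubes.

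SMOC1 and SMOC2 are modular calcium-binding proteins that share with SPARC a follistatin-like domain and a calcium-binding extracellular domain. SMOC1 has been described in Xenopus as an inhibitor of BMP signalling. SMOC1 (ENSGALG00000009415, chromosome 5, 27718429 to 27835276, minus strand) was at 4.48, 2.63 and 2.12 FPKM in the myoblast libraries and at 20.7, 20.9 and 23.5 FPKM in the myotube libraries, a log2 change of 2.88 ± 0.24 (SE). SMOC2 (ENSGALG00000011205, chromosome 3, 41742519 to 41876553, minus strand) was at 0.817, 0.835 and 1.03 FPKM and then at 29.5, 25.2 and 28.4 FPKM, 31.9-fold more (SE 0.15 on the log2 scale). Neither gene's groups overlapped, and the lowest myotube level of SMOC2 was 24.5 times its highest myoblast level. SMOC1 was the more abundant of the pair in each myoblast library and SMOC2 in each myotube library. The ratio of SMOC1 to SMOC2 FPKM within a library was 3.56 ± 1.74 (SD, n = 3) in myoblasts and 0.787 ± 0.0731 (n = 3) in myotubes.

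The spondins are secreted proteins that share an N-terminal spondin domain and carry thrombospondin repeats. SPON1, or F-spondin, was first described in the rat floor plate, where it guides axons, and it binds APP and the receptor LRP8. SPON1 (ENSGALG00000038775, chromosome 5, 6396873 to 6557255, minus strand) was at 15.4, 11.9 and 10.2 FPKM in myoblasts and at 165, 155 and 166 FPKM in myotubes. Every myotube library was at least 10.04 times the highest myoblast library, and the log2 change was 3.75 ± 0.15 (SE), or 13.5-fold. SPON2, or mindin, is known in the mouse as a matrix protein recognised by immune cells. SPON2 (ENSGALG00000038433, chromosome 4, 85477008 to 85483148, plus strand) was at 1.17, 1.35 and 1.66 FPKM in myoblasts and at 100.3, 78.7 and 76.8 FPKM in myotubes, a log2 change of 5.98 ± 0.18. Its lowest myotube level was 46.1 times its highest myoblast level. SPON1 remained the more abundant spondin throughout, but the SPON1 to SPON2 ratio was 13.2, 8.81 and 6.15 in the myoblast libraries and 1.64, 1.97 and 2.16 in the myotube libraries.

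DPT encodes a small protein that binds decorin and collagen and promotes fibril formation. It is known as a product of fibroblasts. DPT (ENSGALG00000039376, chromosome 1, 83908116 to 83934219, plus strand) was at 1.58, 1.52 and 2.42 FPKM in myoblasts and at 82.8, 77.5 and 81.4 FPKM in myotubes, a log2 change of 5.49 ± 0.17 (SE), or 44.9-fold. The myotube values lay close together, while myoblast replicate 3 was the high one of its group.

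CLEC3B encodes tetranectin, a C-type lectin domain protein that binds plasminogen. CLEC3B (ENSGALG00000030969, chromosome 2, 43249990 to 43256640, minus strand) was at 1.01, 1.40 and 0.698 FPKM in myoblasts and at 19.1, 18.8 and 21.9 FPKM in myotubes, a log2 change of 4.34 ± 0.21 (SE), or 20.2-fold. Here myoblast replicate 3 was the low one of its group. COMP, a member of the thrombospondin family of cartilage and tendon that binds collagen (ENSGALG00000003283, chromosome 28, 3800421 to 3815388, plus strand), was at 1.54, 1.86 and 1.18 FPKM and then at 8.28, 9.51 and 8.34 FPKM. Its groups did not overlap either, the log2 change was 2.58 ± 0.17 (5.96-fold), and it was the least abundant of the 10 in myotubes.

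POSTN and TNC were the 2 members with less RNA in myotubes. Periostin carries fasciclin domains, binds collagen and takes part in collagen crosslinking. POSTN (ENSGALG00000017046, chromosome 1, 171990657 to 172022731, plus strand) was at 267, 231 and 197 FPKM in myoblasts and at 51.4, 69.1 and 85.4 FPKM in myotubes, a log2 change of -1.70 ± 0.18 (SE). The lowest myoblast library was 2.30 times the highest myotube library, so the groups did not overlap. Tenascin-C is a large oligomeric glycoprotein that weakens adhesion to fibronectin and marks tendon and remodelling tissue. TNC (ENSGALG00000039990, chromosome 17, 3145480 to 3214636, minus strand) was at 360 (359.6), 338 and 233 FPKM in myoblasts and at 128, 144 and 144 FPKM in myotubes, a log2 change of -1.10 ± 0.15, or 2.15-fold less. Both genes remained at levels well above those of SMOC1, SMOC2, CLEC3B and COMP in myotubes. The ratio of TNC to POSTN FPKM was 1.33 ± 0.141 (SD, n = 3) in myoblasts and 2.09 ± 0.396 (n = 3) in myotubes, with no overlap.

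**Figure D2:**
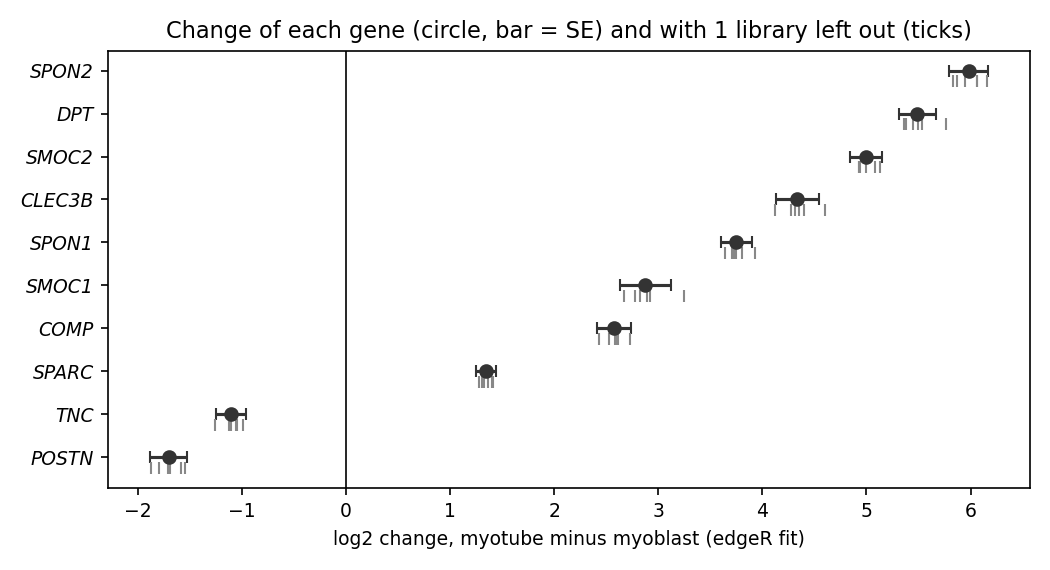
Log2 change of each gene, myotube minus myoblast, from the edgeR fit (circle, bar for the SE), and under it as ticks the 6 values with 1 library left out. The members span from -1.70 for POSTN to 5.98 for SPON2, and every tick lies on the same side of 0 as its circle.

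The median log2 change of the 10 genes was 3.31, and that of all tested genes was 0.0003. Leaving out any 1 library moved the fold change of a member by at most 1.29 times, in SMOC1 without myoblast replicate 1 (log2 change 3.25). Without myoblast replicate 3 the log2 change was 6.16 for SPON2, 5.77 for DPT, 5.13 for SMOC2, 4.12 for CLEC3B and 3.64 for SPON1. It was then 2.67 for SMOC1, 2.43 for COMP, 1.31 for SPARC, -1.26 for TNC and -1.79 for POSTN.

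By length-scaled level the 10 genes fell into an abundant and a scarce set in myoblasts. SPARC led at 748 ± 60.5 FPKM (mean ± SD, n = 3), followed by TNC at 310.1 ± 67.9 and POSTN at 232 ± 35.3, which overlapped each other. SPON1 followed at 12.5 ± 2.66 FPKM, apart from its neighbours in the order. SMOC1, DPT, COMP, SPON2, CLEC3B and SMOC2, from 3.08 down to 0.893 FPKM, each overlapped the next in the order. Genes further apart in it could be separate. The lowest SMOC1 library (2.12 FPKM), for example, lay above the highest COMP library (1.86 FPKM). In myotubes the order was SPARC (1827 ± 113 FPKM), SPON1 (162 ± 5.99), TNC (139 ± 9.52), SPON2 (85.2 ± 13.1), DPT (80.6 ± 2.77), POSTN (68.6 ± 17.0), SMOC2 (27.7 ± 2.23), SMOC1 (21.7 ± 1.56), CLEC3B (19.9 ± 1.70) and COMP (8.71 ± 0.690). Of these neighbours SPON2 and DPT, DPT and POSTN, and SMOC1 and CLEC3B overlapped, and the others did not.

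The make-up of the summed level of the 10 genes differed between the groups. SPARC held 57.2 ± 3.10% of it in myoblasts and 74.8 ± 1.25% in myotubes (SD, n = 3 each). TNC held 23.5 ± 2.77% and then 5.70 ± 0.620%, and POSTN 17.6 ± 0.541% and then 2.83 ± 0.743%. SPON1 held 0.947 ± 0.0904% in myoblasts and 6.63 ± 0.158% in myotubes. The 7 higher members other than SPARC summed to 19.4 to 26.0 FPKM in myoblast libraries and 385 to 425 FPKM in myotube libraries, and POSTN and TNC together went from 429 to 627 FPKM in myoblast libraries to 179 to 230 (229.8) FPKM in myotube libraries. All 10 together made up 0.202 ± 0.0270% of all FPKM in myoblasts and 0.349 ± 0.0180% in myotubes, and their part of all counts, where long genes weigh more, was 0.351 ± 0.0567% and 0.440 ± 0.0140%.

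**Figure D3:**
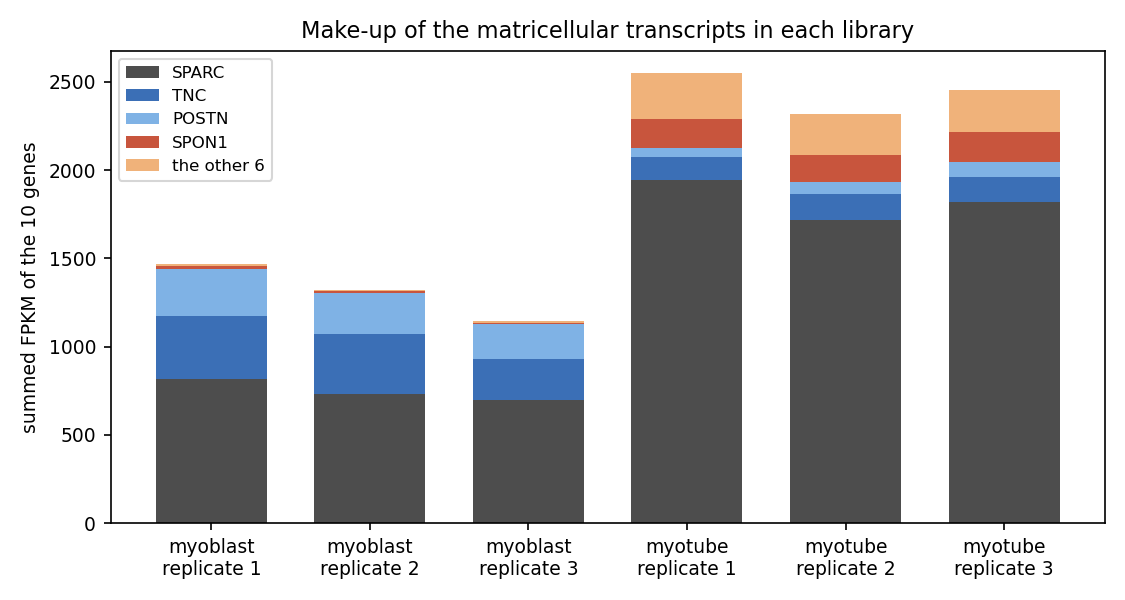
Summed FPKM of the 10 genes in each library, stacked by gene, with the 6 least abundant pooled. SPARC is 57.2% of the stack on average in myoblasts and 74.8% in myotubes, and the TNC and POSTN parts are smaller in myotubes.

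**Figure D4:**
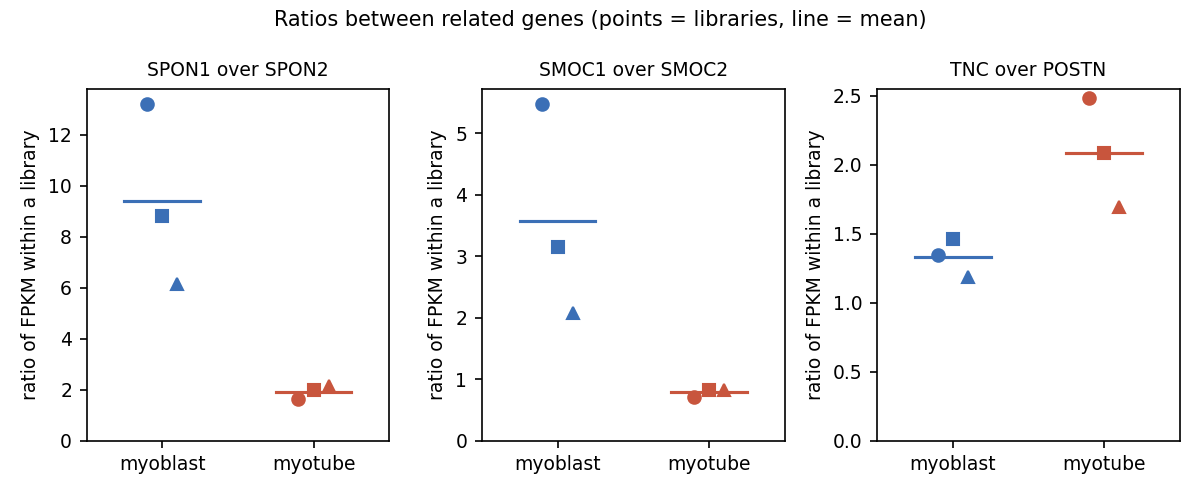
Ratio of FPKM within each library for 3 pairs of members, with points for libraries and a line for the group mean. The SPON1 to SPON2 and SMOC1 to SMOC2 ratios lie lower in all myotube libraries than in any myoblast library, and the TNC to POSTN ratio lies higher in all of them.

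Replicates varied more in myoblasts than in myotubes for 9 of the 10 genes, POSTN being the exception. The coefficient of variation ran from 8.09% (SPARC) to 40.3% (SMOC1) in myoblasts and from 3.44% (DPT) to 24.8% (POSTN) in myotubes. Low counts bear on the scarce genes in myoblasts. SMOC2 had 26 to 38 counts per myoblast library, 91 in all with an exact Poisson 95% interval of 73.3 to 112, and DPT had 29 to 55, 116 in all with an interval of 95.9 to 139. These intervals cover counting error only. In myoblast replicate 3, counts scaled for library size by TMM were the lowest of the group for 7 members, SPARC, SPON1, SMOC1, POSTN, TNC, COMP and CLEC3B, and the highest for the other 3, SPON2, SMOC2 and DPT. The log2 deviation of that library from its group mean was -0.48 for CLEC3B, -0.42 for SMOC1 and -0.35 for TNC, and 0.47 for DPT, 0.31 for SPON2 and 0.24 for SMOC2. The part of this library's high muscle and low fibroblast marker levels in these deviations was not tested.

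The counts could in part be shared with neighbouring genes where reads overlap. Only SPARC overlapped another entry, an opposite-strand gene without a symbol at 12911090 to 12920218 on chromosome 13. That entry had 156 to 227 counts in myoblast and 193 to 248 in myotube libraries, against at least 23763 for SPARC, and had no call (log2 change 0.46, edgeR quasi-likelihood, Benjamini-Hochberg adjusted p = 0.0529). For 4 members the deposited FPKM implied a shorter gene length than the table's length column. The implied length was 1401 against 2089 bases for SPARC, 1299 against 1386 for SMOC1, 2547 against 2645 for POSTN and 5855 against 6927 for TNC, the same in every library. With the length column instead, SPARC stood at 501 ± 40.6 in myoblasts and 1225 ± 76.0 in myotubes (SD, n = 3, same scaling as FPKM). TNC then stood at 262 ± 57.4 and 117 ± 8.05, and POSTN at 223 ± 34.0 and 66.1 ± 16.4. Within each group the order of the 10 genes by mean was then the same as by the deposited FPKM. The shares of the summed level and the ratios between genes rest on the deposited FPKM. With the length column they would differ, with a smaller part for SPARC.

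Among 7291 other genes with a symbol and a mean of at least 5 FPKM, those with profiles over the 6 libraries closest to single members were sought. Likeness was the root mean square difference between profiles of log2(FPKM + 1), each centred on its own mean. SPON2 was closest to OSTN (0.29), SFRP2 (0.39) and PHGDH (0.44), and DPT to OSTN (0.24), PHGDH (0.27) and PTGS2 (0.33). SMOC2 was closest to GLT8D2 (0.13), SLA (0.16) and PTGS2 (0.19), and CLEC3B to LHX9 (0.08), GEM (0.08) and MMP23B (0.11). POSTN was closest to PLAC9 (0.14), TRIP13 (0.16) and SMAD9 (0.16). Among the members SPON2 and DPT were most alike, at 0.20, then SPON1 and CLEC3B, at 0.22, while POSTN and TNC differed by 0.36. The 6 libraries form 2 groups, so that a like size of change on this scale brings profiles together. Adding 1 to FPKM shrinks the changes of genes that are scarce in myoblasts, so close profiles can differ in fold change. The fitted log2 change was 4.34 for CLEC3B, 5.13 for LHX9 and 3.36 for GEM. It was 5.98 for SPON2 and 4.43 for PHGDH.

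Relatives and partners of the members were taken as lists and tested with edgeR's quasi-likelihood test over all genes, with Benjamini-Hochberg adjustment. By this test 30% of all tested genes rose and 29.1% fell, 59.1% in either direction. Where 5 or fewer genes of a list rose or fell they are named, and those outside the naming rule were picked after their values were seen. The list of SPARC family relatives also holds the follistatin genes FST and FSTL3. Of its 9 symbols 8 had an entry and 7 were tested, with 1 higher, 4 lower and 2 not called (median log2 change -0.65). FSTL1, a secreted follistatin-like glycoprotein, rose from 134 ± 14.3 to 283 ± 17.1 FPKM (n = 3 each, log2 change 1.14 ± 0.09). The testicans SPOCK3 (-2.76 ± 0.56, or -3.45 without myotube replicate 1) and SPOCK1 (-1.56 ± 0.28), FSTL4 (-1.30 ± 0.41) and the activin antagonist FST (-0.65 ± 0.20) fell. The calls of FSTL4 and FST were each lost without 1 of 3 libraries, with edgeR adjusted p up to 0.0803 (FSTL4, without myotube replicate 3) and 0.0684 (FST, without myotube replicate 2), and 2 relatives fell without myotube replicate 3. By limma on log2 FPKM 2 also fell, with SPOCK3 and FSTL4 under its filter of a mean of 0.5 FPKM and so not tested. SPARCL1, or hevin, the closest relative of SPARC, was at 1.49 ± 0.207 and 1.43 ± 0.203 FPKM with no call, and FSTL3 had a log2 change of -0.55 ± 0.28 with no call, but was called lower without myotube replicate 1.

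Relatives with thrombospondin repeats or domains moved in both directions. Of 15 symbols 12 had an entry and 9 were tested, with 3 higher, 4 lower and 2 not called (median -0.88). THBS1, an activator of latent TGF-beta, fell from 619 ± 180 to 125 ± 12.0 FPKM (n = 3 each, -2.25 ± 0.20), and THBS4, known from tendon and muscle attachment, from 13.4 ± 1.41 to 0.383 ± 0.0873 FPKM (-5.08 ± 0.17). THBS2 rose from 18.3 ± 4.72 to 132 ± 31.6 FPKM (2.90 ± 0.22). CILP (1.58 ± 0.16) and the Wnt agonist RSPO3 (1.18 ± 0.20) also rose, and RSPO4 (-0.95 ± 0.30) and THSD4 (-0.88 ± 0.17) fell. The RSPO4 call was lost without myoblast replicate 1 or 2 or myotube replicate 1 or 2 (edgeR adjusted p up to 0.0902), and with the replicate block.

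Of the tenascin and fasciclin relatives, 5 of 8 symbols had an entry and 4 were tested, with 1 higher, 1 lower and 2 not called (median -0.14). TGFBI, which like periostin carries fasciclin domains, fell from 739 ± 125 to 191 ± 16.8 FPKM (n = 3 each, -1.90 ± 0.13). FNDC1 rose (2.06 ± 0.25). The tenascin TNN was at 2.82 ± 0.337 and 2.23 ± 0.503 FPKM with no call, as was ABI3BP at 0.489 ± 0.235 and 0.478 ± 0.0368 FPKM. TNR was at 0.0922 ± 0.0404 and 0.0230 ± 0.0149 FPKM and did not pass the filter.

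Of 22 other matricellular symbols 16 had an entry and 15 were tested, and 5 rose, 5 fell and 5 had no call (median -0.08). MATN4 (3.67 ± 0.57, or 4.81 without myoblast replicate 1), the small proteoglycan OGN (3.14 ± 0.43, or 3.79 without myoblast replicate 1), WISP1 (1.49 ± 0.15), MFGE8 (0.90 ± 0.17) and CTGF (0.82 ± 0.11) rose. MATN1 (-2.88 ± 0.51, or -3.55 without myotube replicate 1), WISP2 (-2.26 ± 0.27), VTN (-1.52 ± 0.29), LGALS3 (-0.79 ± 0.10) and CYR61 (-0.55 ± 0.10) fell. MATN4 and MATN1 were scarce. Their mean levels in myoblasts and myotubes were 0.0806 and 1.05 FPKM for MATN4 and 0.206 and 0.0252 FPKM for MATN1. Of the 5 tested genes of the CCN family of matricellular proteins, CTGF and WISP1 thus rose, CYR61 and WISP2 fell, and NOV had no call (1.07 ± 0.90, or -0.78 without myotube replicate 2).

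Among the receptors listed for the members more were called higher than lower, while 30% of all tested genes rose and 29.1% fell. Of 25 symbols 21 had an entry and were tested, with 9 higher, 3 lower and 9 not called (median 0.36). APP, a binding partner of F-spondin, rose from 188 ± 27.6 to 515 ± 33.1 FPKM (n = 3 each, 1.51 ± 0.11). The endocytic receptor LRP1 (1.51 ± 0.09) and the TGF-beta co-receptor ENG (1.49 ± 0.18) also rose. Among the integrin chains, named after their values were seen, ITGB5 (1.25 ± 0.09), ITGA9 (1.02 ± 0.14) and ITGB8 (0.90 ± 0.26) rose. ITGA8 (0.54 ± 0.19) and ITGB1 (0.24 ± 0.07) rose too, and ITGAV, ITGB6 and ITGA2 had no call. ITGA7, an integrin chain of muscle, fell (-1.29 ± 0.41), as did the F-spondin receptor LRP8 (-0.53 ± 0.14) and ANXA2, a tenascin-C receptor (-0.44 ± 0.11). ITGA7 was at -0.61 without myoblast replicate 3 and was no longer called without myotube replicate 1 or 3 (edgeR adjusted p = 0.0891 and 0.0711), and LRP8 without myotube replicate 2 (0.0558). The ITGA8 call was lost without myoblast replicate 1 or 3 or myotube replicate 2 or 3 (edgeR adjusted p up to 0.149). That of ITGB1 was lost without myoblast replicate 1 or myotube replicate 1 or 2, and that of ITGB8 without myotube replicate 1. With library totals in place of TMM the ITGA8 and ITGB1 calls were lost. By limma on TPM the calls of ITGA8, ITGB1 and ITGB8 were lost. The ITGA8 call was also lost with the replicate block and by limma on FPKM, and the ITGA7 call by limma on log2(FPKM + 5). Under the alternatives 6 to 11 receptors were called higher.

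Collagens and their partners rose more often than they fell. Of 28 symbols 21 had an entry and were tested, and 14 rose, 2 fell and 5 had no call (median 0.78). COL1A2, a chain of type I collagen to which SPARC binds, rose from 649 ± 209 to 2408 ± 170.1 FPKM (n = 3 each, log2 change 1.95 ± 0.21). LUM, the proteoglycan lumican, rose by a log2 change of 3.57 ± 0.19. Both genes that fell encode basement membrane collagen chains, COL4A1 (-2.02 ± 0.14) and COL4A2 (-2.08 ± 0.18). The laminin chains of the list, named after their values were seen, did not fall. LAMC1 was called higher (0.22 ± 0.08) and LAMB1 had no call (0.15 ± 0.15). With 1 library left out, the LAMC1 call was kept only without myoblast replicate 1 (edgeR adjusted p otherwise up to 0.109). It was also lost with library totals in place of TMM, with the replicate block and by limma on FPKM or TPM. In the plasminogen system and the proteases, 14 of 20 symbols had an entry and were tested, with 9 higher, 4 lower and 1, ADAMTS5, not called (median 0.54). The gelatinase MMP2, which cleaves many matrix proteins, rose by a log2 change of 3.19 ± 0.13 and the plasminogen activator PLAU by one of 2.21 ± 0.21. SERPINF2, an inhibitor of plasmin (-2.93 ± 0.16), ADAMTS4 (-2.06 ± 0.25), TIMP3 (-1.97 ± 0.10) and MMP9 (-0.98 ± 0.13) fell.

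Of 26 symbols of TGF-beta and PDGF signalling, pathways known to regulate several members, 21 had an entry and were tested, and 6 rose, 10 fell and 5 had no call (median -0.32). PDGFA (-1.99 ± 0.17), PDGFB (-1.65 ± 0.21) and the receptor TGFBR2 (-1.08 ± 0.09) fell, and SMAD4, the shared mediator of the TGF-beta family, rose (1.79 ± 0.16). The ligand TGFB1, at 155 ± 7.84 FPKM in myoblasts and 167 ± 30.5 FPKM in myotubes (n = 3 each), had no call and was called higher without myotube replicate 3 (log2 change 0.31, edgeR adjusted p = 0.029).

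**Figure D5:**
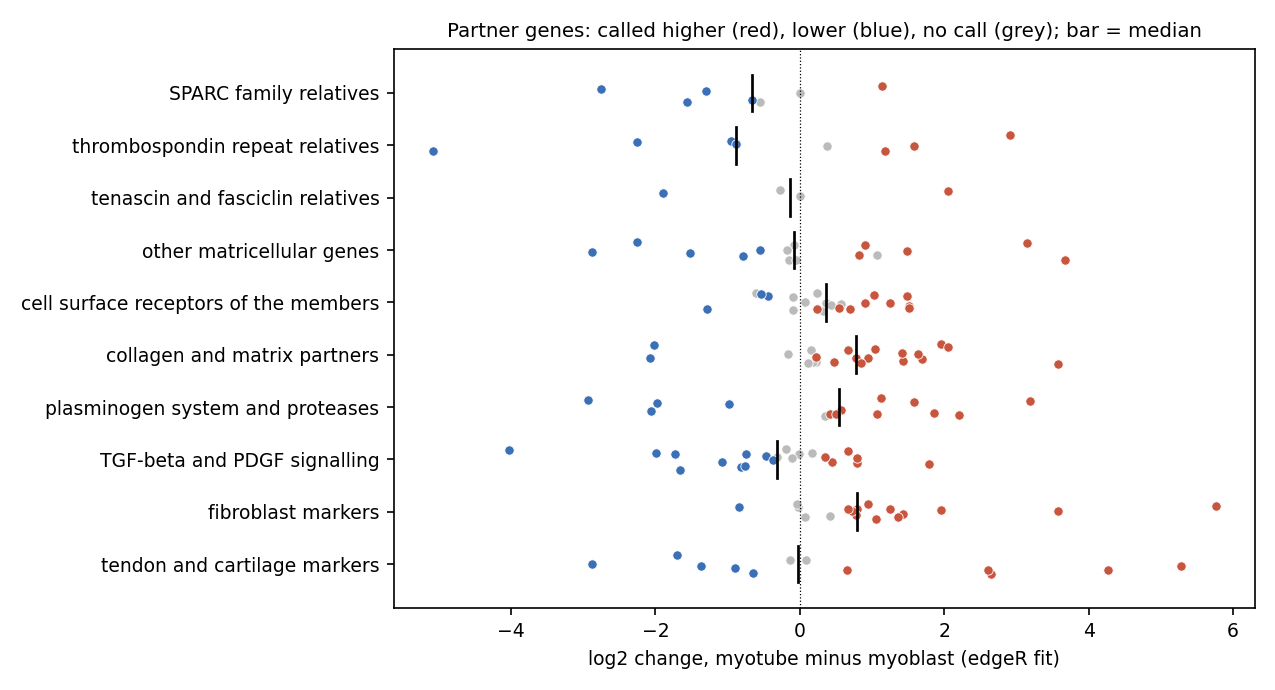
Log2 change of every tested gene of 10 lists, with red for genes called higher in myotubes, blue for lower and grey for no call by edgeR's quasi-likelihood test, and a bar at the median. The collagen and matrix partners and the fibroblast markers have medians of 0.78 and 0.80, and the thrombospondin repeat relatives a median of -0.88.

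Among the markers of other cell types, the fibroblast list was mostly higher in myotubes and the other lists were mixed. Of 22 fibroblast markers 18 had an entry and 17 were tested, with 12 higher, 1 lower and 4 not called (median 0.80). This list shares 6 genes with the collagen list. Its summed level was 1400.4 to 2268 FPKM in myoblasts and 4935 to 5680 (5679.9) FPKM in myotubes. Much of this sum came from abundant matrix genes, such as COL1A2 at 649 ± 209 and 2408 ± 170.1 FPKM. SFRP2 rose by a log2 change of 5.76 ± 0.27 and DCN, the decorin that DPT binds, by one of 1.44 ± 0.18. GLI1 fell (-0.84 ± 0.25), with the call lost without any 1 of 4 libraries (edgeR adjusted p up to 0.08, without myotube replicate 2) and by DESeq2, and TCF21 was below 0.1 FPKM in every library. The 16 muscle markers, of which 11 fell and 5 had no call (median -1.61), include CSRP3 (-4.07 ± 0.34). Without myoblast replicate 3, 12 fell and 1, CHRNA1, rose.

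Of 20 tendon and cartilage markers 15 had an entry and 12 were tested, with 5 higher, 5 lower and 2 not called (median -0.03). Their summed level was 30.1 to 34.4 FPKM in myoblasts and 56.1 to 59.3 FPKM in myotubes. The tendon factor SCX rose from 0.403 ± 0.139 to 15.7 ± 1.67 FPKM (n = 3 each, 5.28 ± 0.25), and CHAD (4.27 ± 0.19), MKX (2.65 ± 0.25), CYTL1 (2.60 ± 0.41) and COL9A2 (0.65 ± 0.20) also rose. MATN1, CNMD (-1.70 ± 0.19), KERA (-1.37 ± 0.37), SOX9 (-0.90 ± 0.19) and COL9A3 (-0.65 ± 0.23) fell, and MATN3 and EPYC were below 0.1 FPKM in every library. The calls of COL9A2 and COL9A3 were lost without any 1 of 3 and of 4 libraries (edgeR adjusted p up to 0.069 and 0.135, without myoblast replicate 1 and myotube replicate 2). The COL9A2 call was also lost by limma on log2(FPKM + 0.1) and log2(TPM + 1), and the COL9A3 call with the replicate block.

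Of 15 smooth muscle and endothelial markers 11 had an entry and 10 were tested, with 3 higher, 4 lower and 3 not called (median -0.73). TAGLN, ACTG2 and MYH11 rose, and KDR, TIE1, RGS5 and CNN1 fell. Unlike this median, the list's summed level was higher in myotubes, at 1109 to 1506 FPKM against 274 to 378 FPKM in myoblasts. The RGS5 call was lost without myoblast replicate 2 or 3 or myotube replicate 1 or 3 (edgeR adjusted p up to 0.139), with no filter on low counts and by DESeq2, and the CNN1 call without myotube replicate 2 or 3 (0.0589 and 0.0559). Of this list 2 genes thus fell without myotube replicate 3, and 1 by limma under each of its settings, with KDR, TIE1 and RGS5 under its filter and so not tested. Of 14 leukocyte markers 9 had an entry and 8 were tested, and 3 rose, CD74, MARCO and CSF1R, 1 fell, CD3E, and 4 had no call (median 0.20). Their summed level was 75.6 to 154 FPKM in myoblasts and 129 to 148 FPKM in myotubes, with overlap. Without myoblast replicate 3, 6 leukocyte markers rose, and without any other 1 library only CD74 did. Among the fibroblast, tendon and cartilage, smooth muscle and endothelial, and leukocyte markers with an entry, none was at 0 in every library. The part of these markers in the levels of the 10 members was not tested.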

How the data were processed

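RNA was measured in 3 myoblast and 3 myotube libraries. Reads were handled with HISAT and HTSeq, per the submitters' processing notes. No version, build, annotation, strand setting or filter was given in the sources used here. The deposited tables hold raw read counts per gene and, beside them, the FPKM the authors computed. Of FPKM values above 0, 66.6% equalled count over length and library total within 1%. Lines that named no gene, 2 per table, were left out.

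Counts were fitted with edgeR 4.0.16 (R 4.3.3): filterByExpr with a minimum count of 10 and a minimum total of 15, TMM scaling, 2 groups, no block, quasi-likelihood test, two-sided, Benjamini-Hochberg adjustment over 15959 genes, called at adjusted p under 0.05. The SE was taken as |log2 change| / sqrt(F), an approximation.

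The members and the lists were chosen with earlier results of these data known. The 13 lists held 231 symbols, 178 with an entry, 4 of these under an older name (RefSeq synonyms included). Named were all members, up to 4 called genes per list with the largest change and a mean of at least 2 FPKM, the relatives of SPARC, tenascin and fasciclin genes, and the 3 genes most like each of 5 members. Alternatives were DESeq2 1.42.0, limma 3.58.1 on log2 FPKM or TPM, other scalings, no filter, a stricter threshold, a replicate block and leaving out each library. Protein and promoter sequences were not used here.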

Additional observations from a re-analysis of the deposited data

How the results depend on the processing

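Every member kept its direction under all 15 alternatives. A fit with 1 library left out shares most of its data with the main fit. It was thus unlikely to move a value beyond the spread between replicates. Of 150 values of members under all the alternatives, 130 moved by less than that spread. The other 20 all came from limma on log2 FPKM or TPM. One of them was SPARC, at 1.19 on log2(TPM + 1) against 1.29 on log2(FPKM + 1). TPM divides each FPKM by its library's sum, which lowers the log2 change of an abundant gene where the myotube sums are higher. These sums were 642452 to 656302 FPKM in myoblast and 692840 to 704726 FPKM in myotube libraries. The median log2 change of the members, 3.31, was 2.94 by limma on log2(FPKM + 1), 1.89 on log2(FPKM + 5) and 3.03 on log2(TPM + 1), and ran from 3.15 to 3.59 with 1 library left out. The count of 8 higher and 2 lower members without overlap held under other scalings, FPKM and TPM. Leaving out a library cannot make separated groups overlap, so that check could not change the count. The 10 genes' share of summed FPKM was 0.147 percentage points higher in myotubes, and their share of total counts 0.0897 points. The median of all genes was -0.13 and 39.2% of calls were rises by limma on log2(TPM + 1), against -0.04 and 47.1% by limma on log2(FPKM + 1) and 50.7% by edgeR. Relative to the TPM median SPARC was at 1.32 and TNC at -1.11. Over all lists 64 genes rose and 54 fell, with 53 to 69 and 41 to 59 under the alternatives.

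Same-numbered libraries showed little common deviation (correlations of 0.05, 0.06 and -0.06). Deviations from a group mean depend on each other within the group, so these correlations cannot decide whether the numbers pair the libraries. Myoblast replicates 2 and 3 correlated best with another number. With the replicate block, 4579 genes rose and 4381 fell, against 4785 and 4651, and the members' median was 3.35, with 64 list genes higher and 51 lower. Depth limits SMOC2, DPT, SPON2 and CLEC3B most, with 26 to 75 counts per myoblast library.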
